A study of Homo sapiens with 19 samples.

Results

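SR proteins are RNA-binding proteins with arginine- and serine-rich domains that help the spliceosome to choose exons. The 10 genes described here were taken by name: 8 SR protein genes (SRSF1, SRSF2, SRSF3, SRSF4, SRSF5, SRSF6, SRSF7 and SRSF11) and the SR-like genes TRA2A and TRA2B, of 22760 genes with reads on annotated introns in 19 human libraries. Several of these genes carry a poison exon, a cassette exon that brings a stop codon into the reading frame. A transcript that includes the exon is open to nonsense-mediated decay, the pathway that removes RNAs with early stop codons, and for several of these genes the protein is known to promote inclusion of its own poison exon, which limits its own level. The question was how the inclusion of these exons, the use of other introns and the reads of each gene varied with knockdown, time, cell line and RNA fraction.

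RNA was depleted of ribosomal RNA, and the measured values are spliced reads counted per intron. From A375 (a melanoma line) there was a library of total RNA, one of nuclear RNA and one of cytoplasmic RNA, where the nuclear fraction is the pellet left after detergent lysis. The line HEK293, from embryonic kidney, and the HUES66 line, of embryonic stem cells, were each sequenced as 1 total RNA library labelled WT, with no treatment in the labels. The other 14 libraries came from HUES66 cells given doxycycline at 1 ug/ml for 24, 48 or 96 hr. They comprise 3 controls of genotype WT, 3 libraries of RBFOX2 total knockdown (total KD), and 4 each of the isoform knockdowns named N-short KD and N-long KD. RBFOX2 is a splicing regulator, and the series title names Cas13d, an RNA-guided enzyme that cuts RNA, as the tool. The controls thus share the doxycycline with the knockdowns. There was 1 library of each group at 48 hr and at 96 hr. At 24 hr a replicate 1 set held 3 knockdowns and no control, and a replicate 2 set held a control, N-short KD and N-long KD. The labels give the 24 hr sets separate library series, 48 and 96 hr 1 shared series, and HEK293 the series of 24 hr replicate 2. The A375 libraries share a series of their own. HUES66 WT has the series of 24 hr replicate 1, and its library name holds the word empty, as the names of the controls do. Whether it was given doxycycline or carries the knockdown system is not stated, and this limit holds for each of its comparisons. The labels do not say that cultures were separate, so p-values measure the spread between these libraries, which may be technical.

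Junction reads numbered 9622841 to 14625040 in the 14 doxycycline libraries and 6499183 (A375 nuclear) to 27937149 (HUES66 WT) in the others, and 96.7% to 98.3% were on annotated introns. None of the 171 library pairs was identical. RBFOX2 itself had 121 to 128 CPM (reads scaled to 1e6 reads assigned to genes) in controls. Total KD libraries had 49.2 to 80.3 CPM of it, N-long KD libraries 74.0 to 89.4 and N-short KD libraries 109 to 123. The 6 stem cell markers summed to 2661 to 4345 CPM in the 14 libraries, 3270 in HUES66 WT, 9.27 in A375 and 48.6 in HEK293. Of the 6 melanoma markers, MLANA and TYR were at 0 in A375, where the list summed to 159 CPM and SOX10 alone gave 103, and in HUES66 WT the list summed to 51.1, nearly all of it PMEL. The 3 kidney markers summed to 11.9 CPM in HEK293 and 3.29 in A375. In bulk RNA, fewer cells of a type and less RNA per cell cannot be told apart.

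The annotation gave 22 candidate cassette exons in 8 of the 10 genes, and 14 of them had enough reads in the doxycycline libraries to be tested (a mean of at least 20 reads and a pooled inclusion of 2% to 98%). SRSF1 and SRSF5 had none, and their intron use is given further on. Poison exons were 16 of the 22, in 7 genes: 4 in TRA2A, 3 each in SRSF7 and SRSF11, 2 each in SRSF3 and SRSF4, and 1 each in SRSF6 and TRA2B. A stop codon lay within 15 of them, 12 were in transcripts annotated as nonsense-mediated decay, and 10 had a length divisible by 3. The 4 outside that annotation are the 312-, 301- and 90-nt exons of TRA2A and a 33-nt exon of SRSF11, which are poison exons here by their in-frame stop codon alone. The 301- and 90-nt exons lie in transcripts annotated as protein-coding, outside their coding sequence. The 312- and 33-nt exons lie in processed transcripts. The 10 poison exons with enough reads were the 4 of TRA2A, 2 of SRSF11 and 1 each of SRSF3, SRSF6, SRSF7 and TRA2B. Another 3 exons were other variable exons, and 3 lay outside the coding sequence of the transcript that skips them, among them a 104-nt exon of SRSF2 in a decay-type transcript.

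The poison exon with the most inclusion reads in each of 7 genes is shown from its first base to the stop codon met in the reading frame of the upstream exon, because that stop defines the class. The letters come from GENCODE 29 transcripts (GRCh38), 5′ to 3′ in the sense of the gene, with the stop codon in capitals.
SRSF3, 456-nt exon at chr6:36599821-36600276, plus strand: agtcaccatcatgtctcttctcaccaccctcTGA
SRSF4, 195-nt exon at chr1:29159864-29160058, minus strand: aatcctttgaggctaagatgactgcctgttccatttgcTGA
SRSF6, 268-nt exon at chr20:43459153-43459420, plus strand: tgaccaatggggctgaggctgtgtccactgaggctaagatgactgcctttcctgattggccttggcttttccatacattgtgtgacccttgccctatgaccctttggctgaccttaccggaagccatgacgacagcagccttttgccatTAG
SRSF7, 449-nt exon at chr2:38748898-38749346, minus strand: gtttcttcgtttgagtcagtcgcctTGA
SRSF11, 117-nt exon at chr1:70231859-70231975, plus strand: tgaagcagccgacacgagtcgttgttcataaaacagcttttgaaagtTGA
TRA2A, 312-nt exon at chr7:23522121-23522432, minus strand: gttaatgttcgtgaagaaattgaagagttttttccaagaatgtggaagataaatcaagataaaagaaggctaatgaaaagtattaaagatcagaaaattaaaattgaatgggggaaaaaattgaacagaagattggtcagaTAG
TRA2B, 276-nt exon at chr3:185931577-185931852, minus strand: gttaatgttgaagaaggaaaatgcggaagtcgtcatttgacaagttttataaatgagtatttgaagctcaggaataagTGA

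The stop codon ended 28 bases into the SRSF7 exon, 34 into that of SRSF3, 41 into that of SRSF4, 50 into that of SRSF11 and 81 into that of TRA2B. It ended 144 bases into the TRA2A exon and 152 into the SRSF6 exon. Over the whole exons, the longest run of bases shared by any 2 of the 7 was the 20-base run tgaggctaagatgactgcct of SRSF4 and SRSF6. The TRA2A and TRA2B exons had 12 bases in common (gaagaatgaaga) and also opened with the same 9 bases. GAAGAA, a letter run of the GA-rich kind that TRA2 proteins are known to bind, was searched on the sense strand only, with overlapping matches counted. It occurred 4 times in the TRA2A exon, 3 times in the TRA2B exon, once in the SRSF7 exon and 0 times in the exons of SRSF3, SRSF4, SRSF6 and SRSF11. Of the 603 tested cassette exons of 200 to 500 nt in all genes, 22.7% held it.

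Several exons share a splice site and hence reads. The 312-, 301- and 79-nt TRA2A exons use the same acceptor, the 195- and 228-nt SRSF4 exons the same donor, and the 276- and 449-nt SRSF7 exons the same donor. They are forms of 1 exon rather than separate observations. Inclusion is the percent of reads that include the exon, with the 2 inclusion junctions averaged and the mean rounded to whole reads, among inclusion plus skipping reads.

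In the knockdowns, no gene among the 10 and no tested exon or intron of theirs passed the test. By edgeR's quasi-likelihood test with Benjamini-Hochberg adjustment over all features, 0 of 10 genes passed an adjusted p of 0.05 in any of 4 contrasts: total KD, N-short KD and N-long KD, each against control, and the isoform knockdowns against each other (N-long KD minus N-short KD). Of all 13628 genes tested, the share that passed was, in this order, 2.2%, 0%, 0.022% and 0.0147%. At an unadjusted p under 0.05 there were 4, 0, 0 and 0 of the 10 genes, where 13%, 3.94%, 4.36% and 5.09% of all genes were, and DESeq2 called 0 of them in each contrast.

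The 4 genes under an unadjusted p of 0.05 all had fitted values below 0 in total KD against control. SRSF5, an SR protein whose mRNA has a long alternative intron, differed by −0.10 ± 0.04 on the log2 scale (SE, adjusted p = 0.171, lower in 2 of 2 matched sets). SRSF4 differed by −0.14 ± 0.06 (adjusted p = 0.217) and SRSF3, the smallest of the family, by −0.09 ± 0.04 (adjusted p = 0.288). SRSF2 differed by −0.12 ± 0.05 (adjusted p = 0.268, lower in 1 of 2 sets), and this is the difference that turned in sign in a fit without the replicate block, to 0.06 (adjusted p = 0.89, range over its alternatives 0.154 to 0.89). SRSF5 passed when the HUES66 WT library was added as a control of 24 hr replicate 1 (−0.11, adjusted p = 0.0405, range over its alternatives 0.0405 to 0.578).

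The tested cassette exons gave 0 of 14 called in each of these contrasts, where 1.41%, 0.0161%, 0.627% and 0.434% of 6222 exons were called. Introns were also compared by their share of the reads that compete for the same splice site, with 0 of 49 called against 0.829%, 0.0107%, 0.341% and 0.26% of 28114. By their use within the gene the count was 0 of 77, against 0.0794%, 0.00429%, 0.0397% and 0.0386% of 93226. Unadjusted p-values were under 0.05 for 0, 0, 1 and 1 of the 14 exons, where 7.78%, 4.23%, 5.48% and 5.14% of all exons were. By share they were for 1, 0, 3 and 3 of the 49 introns (6.79%, 4.14%, 5.13% and 4.74% of all introns), and by use for 4, 1, 2 and 4 of the 77 (5.15%, 4.69%, 4.89% and 4.8%). Limma called 0 of the 14 exons.

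The exon with an unadjusted p under 0.05 in both N-long KD contrasts was the 36-nt coding exon of SRSF7, a zinc-knuckle SR protein that also acts in mRNA export. Its inclusion in N-long KD was 81.5% and 82.8% in the 24 hr sets, 81.0% at 48 hr and 81.1% at 96 hr, the lowest library of its set each time. N-short KD gave 86.1%, 85.0%, 83.4% and 83.7%, and the 3 controls gave 84.4%, 83.9% and 84.7%. N-long KD therefore did not overlap with N-short KD or control in these percentages. The difference from N-short KD was −2.95 ± 1.14 points (SD over 4 sets), with a log2 odds change of −0.32 ± 0.10 (SE, adjusted p = 0.259), and that from control was −2.73 ± 1.06 points over 3 sets (−0.32 ± 0.11, adjusted p = 0.352). Neither passed the adjusted threshold, and the share of all exons that separate as fully is not given here. Total KD differed from control in the other direction, by 0.15 and 1.91 points in its 2 matched sets (log2 odds 0.16 ± 0.12).

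The authors' deposited tables gave 26 to 36 splicing events in these genes per knockdown and time, 273 in the 9 tables. Of these 273 events in the authors' deposited tables, 0 had an adjusted p under 0.05, the lowest being 0.542, and 8 had a p under 0.05; over all events of a table, 0.00218% to 0.125% were called. That lowest value belonged, in the authors' deposited table for N-long KD at 48 hr, to the 90-nt TRA2A exon, with an inclusion difference of 0.094 (control minus knockdown, p = 0.00588).

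**Figure D1:**
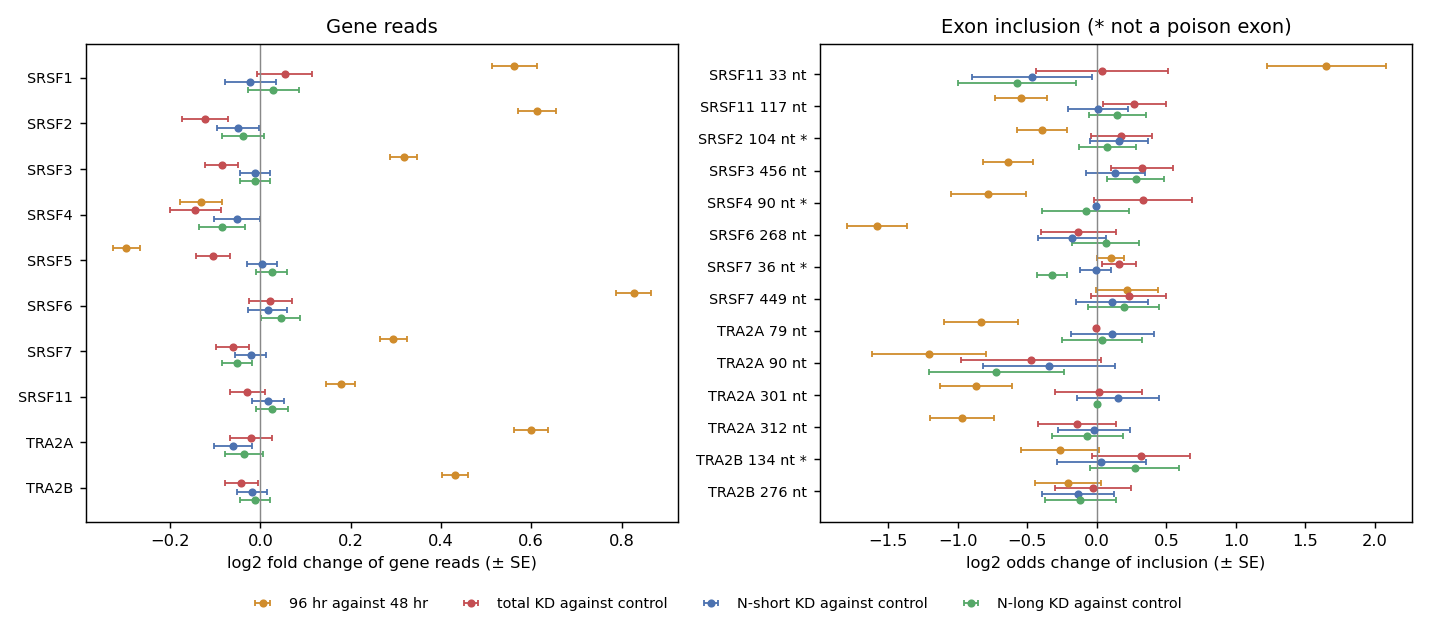
Effects on the 10 genes (left, log2 fold change of gene reads) and on their 14 tested cassette exons (right, log2 odds change of inclusion), with bars of 1 SE, for 96 hr against 48 hr and for each knockdown against control; an asterisk marks an exon that is not a poison exon, and a point without a bar has an effect too near 0 for the SE to be derived. The time contrast reaches 0.83 for SRSF6 reads, and on exons it runs from −1.58 (SRSF6) to 1.65 (SRSF11, 33 nt). The knockdown effects lie between −0.14 and 0.05 on gene reads and between −0.72 and 0.33 on exons.

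Between 48 and 96 hr all 10 genes changed. By the same edgeR test, 8 rose (SRSF6, SRSF2, TRA2A, SRSF1, TRA2B, SRSF3, SRSF7 and SRSF11) and 2 fell (SRSF5 and SRSF4), against a background of 59% of all genes called, 29.3% higher and 29.7% lower. The median change was 0.37 (log2) over the 10 genes and −0.01 over all genes. With 59% of genes called, a call by itself sets no gene apart. The share of all genes or exons whose 48 and 96 hr libraries do not overlap is not given here. A lack of overlap therefore sets no gene or exon apart either. Each time point is 1 set of libraries, so time and library set cannot be told apart.

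SRSF6, a regulator of exon choice related to SRSF4, had the greatest change of the 10. Its level was 112, 114, 108 and 109 CPM at 48 hr (control, total KD, N-short KD, N-long KD) and 190, 188, 187 and 187 CPM at 96 hr. The sets did not overlap. The log2 fold change was 0.83 ± 0.04 (SE, adjusted p = 1.8e-18).

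SRSF2, which binds exonic enhancers and is a target of mutation in myeloid disease, went from 93.1 to 103 CPM at 48 hr to 140 to 144 at 96 hr (0.61 ± 0.04). TRA2A, which binds GA-rich exonic enhancers, went from 96.4 to 103 CPM to 141 to 150 (0.60 ± 0.04). SRSF1, the founding member of the family, went from 53.2 to 61.4 CPM to 78.5 to 82.1 (0.56 ± 0.05, range over its alternatives 0.415 to 0.606). Its reads leave out introns that the annotation also gives to a second gene name. TRA2B, the close paralogue of TRA2A, went from 277 to 290 CPM to 358 to 377 (0.43 ± 0.03). In each of these the lowest 96 hr library lay above the highest 48 hr library.

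The other rises were smaller. SRSF3 went from 467 to 503 CPM to 567 to 595 (0.32 ± 0.03), SRSF7 from 294 to 314 to 350 to 370 (0.29 ± 0.03) and SRSF11, an SR-related protein of the spliceosome, from 264 to 279 to 285 to 306 (0.18 ± 0.03). SRSF5 fell from 266 to 300 CPM to 216 to 235 (−0.30 ± 0.03, adjusted p = 4.2e-10). SRSF4 fell from 70.3 to 76.3 CPM to 60.2 to 69.0 (−0.13 ± 0.05, adjusted p = 0.0139), and this call was lost when introns at cassette exons were left out of the gene's reads (−0.05, adjusted p = 0.567, range over its alternatives 0.0136 to 0.567). All 10 directions held in 4 of 4 arms (control and the 3 knockdowns).

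Marker levels moved with time too. The stem cell markers summed to 2987 to 3123 CPM at 48 hr and 3576 to 4345 at 96 hr, and the list for differentiated cells to 133 to 155 and 398 to 742. In the latter list VIM gave nearly all reads, and 3 of its 5 genes with annotated introns were under 1 CPM in all 14 libraries. Their part in the result was not tested.

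**Figure D2:**
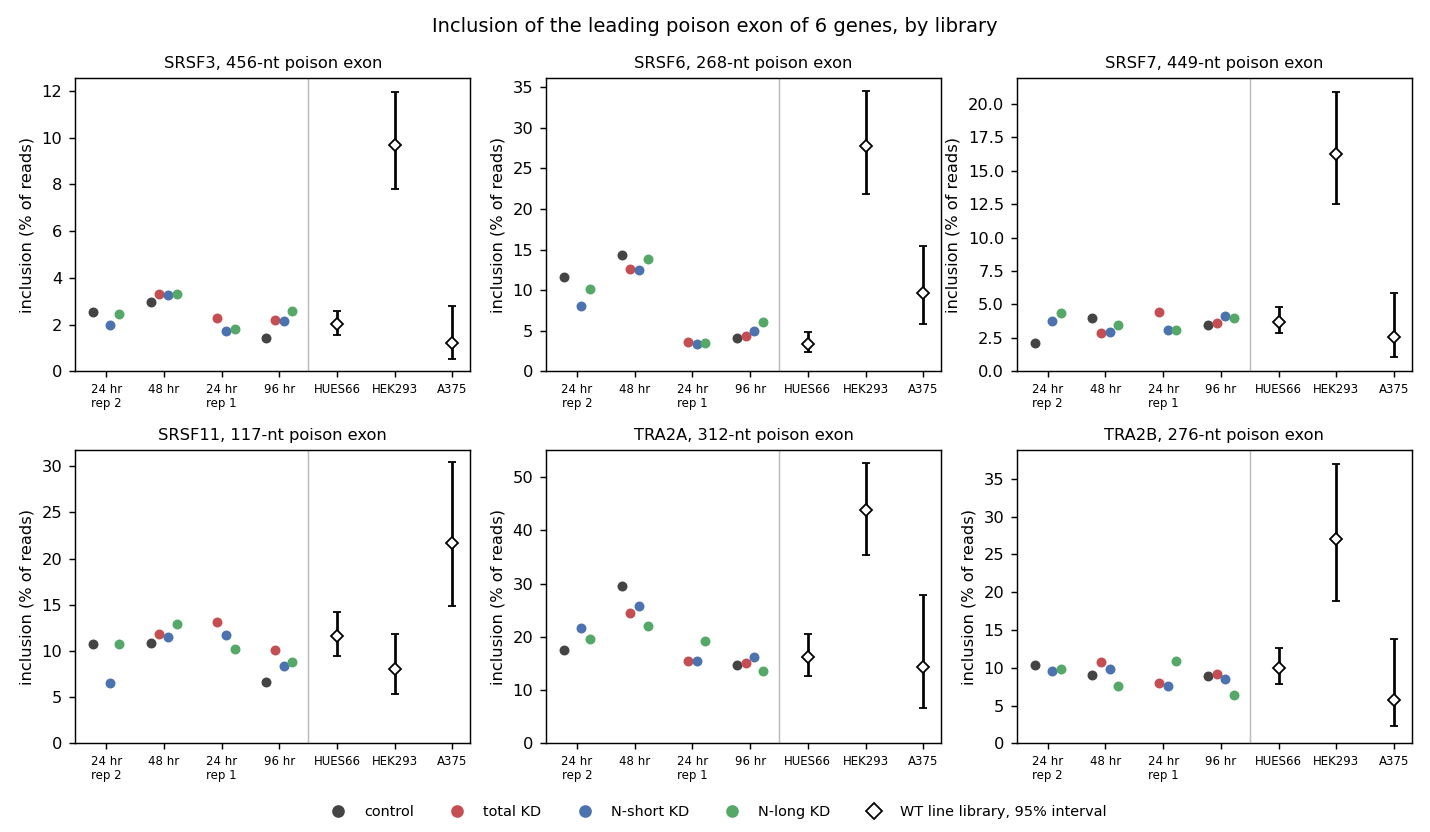
Inclusion of the poison exon with most reads in 6 genes, in percent of inclusion plus skipping reads, for each doxycycline library (filled points, by library set and knockdown) and for the WT library of each cell line (diamonds with 95% Wilson intervals, counting error only). The 4 points at 48 hr lie above the 4 at 96 hr in SRSF6, SRSF3, SRSF11 and TRA2A, and HEK293 is the highest line in all but SRSF11.

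While 8 of the genes rose, most of their tested poison exons were included less at 96 hr. Of the 14 tested exons 9 changed, 8 lower and 1 higher, against a background of 17.2% of all cassette exons (8.87% higher, 8.34% lower). Among the 10 tested poison exons 7 fell and 1 rose, with a median log2 odds change of −0.74, where the median over all exons was 0.08. Of the 7 that fell, 4 are TRA2A exons, and 3 of these share an acceptor. All 4 are set against the same skipping intron, so they are not 4 separate falls. The count of 9 became 5 without total KD at 48 hr, N-short KD at 48 hr, control at 96 hr or N-long KD at 96 hr, and 3 with limma or with the smaller inclusion junction. The SRSF6 exon and the 312-nt TRA2A exon were called in all of these.

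SRSF6 had the largest fall on the log2 odds scale among the called exons. Inclusion of its 268-nt exon was 14.3%, 12.6%, 12.4% and 13.9% at 48 hr in that order of arms, and 4.15%, 4.39%, 4.91% and 6.06% at 96 hr. All 48 hr libraries were above all 96 hr libraries. The difference was −8.41 ± 1.18 points (SD over 4 arms), a log2 odds change of −1.58 ± 0.22 (SE, adjusted p = 1.5e-07). Its junctions were read unevenly: at 48 hr the upstream one had 8 to 15 reads and the downstream one 34 to 41, and each fell as a share of competing reads (log2 odds −1.44 and −1.71).

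The 312-nt TRA2A exon was included in 29.5%, 24.5%, 25.8% and 22.0% of reads at 48 hr in the same order (control, total KD, N-short KD, N-long KD), and in 14.6%, 15.0%, 16.3% and 13.7% at 96 hr. These groups did not overlap either, and the difference was −10.6 ± 2.95 points (log2 odds −0.97 ± 0.23, adjusted p = 0.00174). The 301- and 79-nt forms, which share the acceptor, moved by −0.87 (adjusted p = 0.0143) and −0.83 (adjusted p = 0.0234), calls lost in 3 and 6 alternatives. A 90-nt TRA2A exon with splice sites of its own, but the same skipping intron, opens on a stop codon. It went from 12.7%, 10.1%, 10.4% and 4.88% to 5.41%, 3.77%, 5.50% and 2.80%, in the same order of arms (log2 odds −1.21 ± 0.41, adjusted p = 0.0319). There the N-long KD library at 48 hr overlapped with the 96 hr libraries, though each arm was lower at 96 hr, and the call was lost in 7 alternatives (adjusted p up to 0.126).

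SRSF3 had low inclusion of its 456-nt exon throughout, at 2.97%, 3.32%, 3.24% and 3.30% at 48 hr and 1.41%, 2.18%, 2.15% and 2.58% at 96 hr in the same order. The groups did not overlap (−1.13 ± 0.34 points, log2 odds −0.64 ± 0.18, adjusted p = 0.00947). The call was lost without the 96 hr control library, the lowest value (−0.49, adjusted p = 0.116, range over its alternatives 0.0064 to 0.124). The 117-nt SRSF11 exon went from 10.8%, 11.8%, 11.5% and 13.0% to 6.63%, 10.1%, 8.33% and 8.84% (log2 odds −0.55 ± 0.19, adjusted p = 0.0382). It was not called in 9 of its 18 alternatives, 6 of them with 1 library left out (adjusted p 0.0286 to 0.227 over all 18).

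SRSF11 also held the exon that went the other way. Its 33-nt poison exon at chr1:70247117-70247149 was included in 1.32%, 0.588%, 0.656% and 0.633% of reads at 48 hr and in 2.7%, 2.80%, 2.22% and 2.38% at 96 hr, on 1 to 4 reads per junction at 48 hr. The change was 1.65 ± 0.43 (log2 odds, adjusted p = 0.00563), without overlap, and was lost without total KD at 48 hr (adjusted p = 0.0551). The exon's pooled inclusion over the 14 libraries was 2.06%, just above the 2% needed for a test. Every 48 hr library was below 2%, so the exon was tested only through the libraries where it was higher. Its rise is tied to that filter, and the opposite directions of the 2 SRSF11 exons are a description only.

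The 90-nt coding exon of SRSF4 was the remaining call: 91.9%, 94.4%, 93.6% and 94.5% at 48 hr against 92.8%, 89.9%, 90.4% and 84.9% at 96 hr (log2 odds −0.78 ± 0.27, adjusted p = 0.0389), lower in 3 of 4 arms and higher in control. It was not called in 7 of its 18 alternatives (adjusted p 0.00405 to 0.367).

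The 5 exons that did not pass include the poison exons of TRA2B and SRSF7, both of whose genes rose. The 276-nt TRA2B exon gave 7.63% to 10.7% at 48 hr and 6.37% to 9.22% at 96 hr, and the ranges overlapped (log2 odds −0.21 ± 0.23, adjusted p = 0.623). The 449-nt SRSF7 exon gave 2.83% to 4.01% and 3.45% to 4.15% (0.22 ± 0.22, adjusted p = 0.573). The SRSF2 104-nt exon gave 2.88% to 3.20% and 2.02% to 2.48%, with an adjusted p of 0.181.

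At a single labelled time, 24 hr, the 2 library sets differed as well. In replicate 1 against replicate 2, which was compared only once the data had been seen, 9 of 10 genes were called, 8 higher and 1 lower, where 33.6% of all genes were called (16.7% higher, 16.9% lower). SRSF6 differed by 0.59 ± 0.05 (191 to 204 CPM against 119 to 136) and SRSF2 by 0.58 ± 0.05. SRSF1 differed by 0.48 ± 0.06 (range over its alternatives 0.333 to 0.535). TRA2B, SRSF7, SRSF3, TRA2A and SRSF5 were higher by 0.34, 0.24, 0.23, 0.15 and 0.10, and SRSF11 was lower by 0.10 (log2 −0.10, adjusted p = 0.0489). The calls for SRSF11, SRSF5 and TRA2A were lost in several alternatives. SRSF4 was not called.

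Of the 14 exons 1 was called between these sets (background 1.24%, 0.723% higher and 0.514% lower), again the SRSF6 poison exon. Its inclusion was 3.57%, 3.33% and 3.52% in total KD, N-short KD and N-long KD of replicate 1, and 11.6%, 8.02% and 10.1% in control, N-short KD and N-long KD of replicate 2 (log2 odds −1.55 ± 0.29, adjusted p = 0.000896); the call was lost with the smaller junction (adjusted p = 0.0695) and with limma (0.125). Replicate 1 thus had more SRSF6 reads and a lower share of poison exon reads at the same labelled time. The HUES66 WT library, whose library series is that of replicate 1, had 175 CPM of SRSF6 and 3.36% inclusion. The TRA2A 312-nt exon gave 15.4% to 19.3% in replicate 1 and 17.5% to 21.7% in replicate 2, which overlapped.

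SRSF1 and SRSF5 have no cassette exon in the annotation that met the definition, so their introns were read directly. In use within the gene, 8 of 77 introns changed between 48 and 96 hr (background 1.38%), 3 higher and 5 lower (background 0.768% and 0.617%), and 12 of 77 between the 24 hr sets (background 2.55%).

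For SRSF1, the intron with the smallest p lies in the 3′ UTR at chr17:58004002-58004922 and belongs to decay-type transcripts, since splicing it places a junction after the normal stop codon. Per 100 reads of the first intron (chr17:58006528-58006943) it had 18.0, 17.1, 19.8 and 18.8 reads at 48 hr in the same order of arms, and 4.61, 2.91, 4.95 and 5.67 at 96 hr. The log2 change in use was −2.02 ± 0.12 (adjusted p = 4.8e-27), on 142 to 168 reads at 48 hr and 27 to 62 at 96 hr. The 24 hr sets were as far apart, at 4.66 to 5.99 in replicate 1 and 15.5 to 18.3 in replicate 2 (−1.75 ± 0.14, adjusted p = 3.6e-17). Another SRSF1 intron, chr17:58005601-58005800, was used more at 96 hr (0.26 ± 0.05, adjusted p = 0.000398), and this was lost without the 96 hr control (adjusted p = 0.0534).

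For SRSF5 the leading intron was chr14:69769252-69770466, which a decay-type transcript interrupts with an acceptor of its own. Per 100 reads of its neighbours it had 45.3, 42.5, 38.8 and 39.5 reads at 48 hr in the same order of arms, and 64.3, 62.3, 62.4 and 68.2 at 96 hr (0.71 ± 0.07, adjusted p = 2.1e-13). It reached 96.0 to 98 in 24 hr replicate 1 and 58.8 to 63.2 in replicate 2. Its share of competing reads rose from 93.5% to 95.5% at 48 hr to 96.5% to 98.1% at 96 hr (log2 odds 1.20 ± 0.33, adjusted p = 0.00424). Thus the splicing of this intron and the gene's reads moved in opposite directions between 48 and 96 hr. A second SRSF5 intron, chr14:69768283-69768603, fell in use (−0.20 ± 0.06, adjusted p = 0.0346), a call lost in 8 of its alternatives.

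The intron that skips the SRSF6 poison exon, chr20:43458510-43459770, mirrored the exon. It had 58.3 to 72.4 reads per 100 of its neighbours at 48 hr and 86.9 to 94.4 at 96 hr, and 96.4 to 115 in 24 hr replicate 1 against 67.7 to 80.0 in replicate 2. The remaining calls between 48 and 96 hr were the downstream inclusion intron of the SRSF6 exon (−1.27 ± 0.18), the upstream one of the SRSF3 exon (−0.86 ± 0.19) and an SRSF11 intron, chr1:70250504-70250610 (−0.34 ± 0.08). The SRSF3 and SRSF11 calls were each lost without the 48 hr control, the former also without the 96 hr control and the latter also without N-long KD at 48 hr (adjusted p up to 0.139 and 0.136). That SRSF11 intron competes with chr1:70250504-70250607, whose share rose from 49.6% to 58.8% at 48 hr to 59.3% to 63.3% at 96 hr; their acceptors are 3 bases apart.

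By share of competing reads, 17 of 49 introns changed between 48 and 96 hr, 8 higher and 9 lower (background 13.5%, 6.58% higher and 6.9% lower), and 2 of 49 between the 24 hr sets (background 1.09%), both at the SRSF6 exon. The count of 17 became 11 without N-long KD at 48 hr and also without the replicate block. They fall in SRSF3, SRSF4, SRSF5, SRSF6, SRSF11 and TRA2A. In TRA2A the intron that skips all 4 poison exons, chr7:23521841-23531788, rose from 45.3% to 56.1% of its competing reads to 63.6% to 70.6% (log2 odds 1.00 ± 0.19). In SRSF4 the intron chr1:29160518-29181645 fell from 94.8% to 96.5% to 84.4% to 94.4% (−1.28 ± 0.41).

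The other calls by share flank exons already described. At the SRSF6 exon all 3 introns moved, the skipping one by 1.65. At the SRSF3 exon the skipping intron rose (0.66) and the upstream inclusion intron fell (−0.89). At the 117-nt SRSF11 exon the skipping intron rose (0.53) and the downstream one fell (−0.55), and at its 33-nt exon the upstream one rose (1.54). In TRA2A the downstream intron of the 312-nt exon (−1.17) and the upstream intron of the 90-nt exon (−1.38) fell, and at the 90-nt SRSF4 exon 1 inclusion intron fell (−0.83) and the skipping one rose (0.78).

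Between the 24 hr sets the introns called by use within the gene were the leading ones of SRSF1, SRSF5 (0.66) and SRSF6 (skipping 0.49, downstream inclusion −1.13) and 8 others. SRSF2 had its intron chr17:76736465-76736798 used more in replicate 1 (0.60 ± 0.09, 29.4% to 32.5% of the gene's reads against 22.3% to 24.6%) and chr17:76735159-76736153 used less (−0.54 ± 0.08). TRA2B had chr3:185926735-185937824 used more (0.39 ± 0.10) and chr3:185921188-185922010 used less (−0.28 ± 0.06). An SRSF4 intron, chr1:29159487-29160374, was higher (0.55 ± 0.12), and the SRSF1 intron chr17:58005601-58005800 was higher by 0.23. SRSF11 chr1:70250048-70250364 (−0.32) and SRSF7 chr2:38749706-38750013 (−0.21) were lower. Without single libraries the SRSF7, SRSF1, TRA2B higher and SRSF11 calls and the SRSF6 inclusion call were lost in 9, 7, 3, 1 and 1 alternatives.

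**Figure D3:**
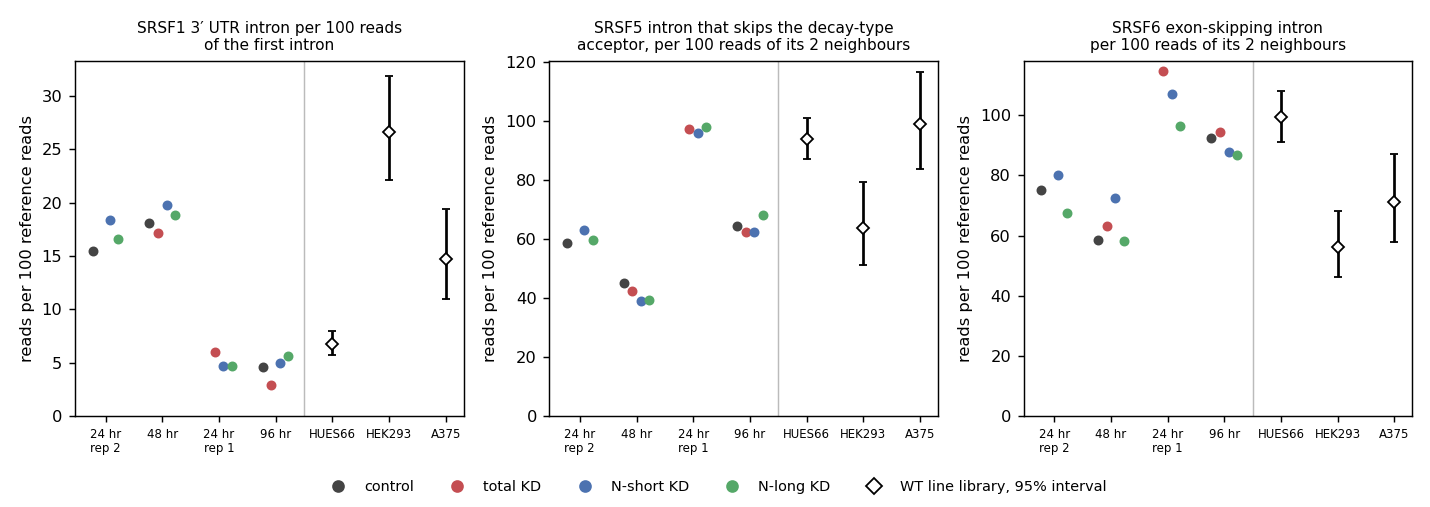
Reads of 1 intron each of SRSF1, SRSF5 and SRSF6 per 100 reads of reference introns of the same gene, by library set and knockdown (filled points) and for the WT library of each cell line (diamonds with 95% intervals from counts). In all 3 panels 24 hr replicate 1 stands apart from 24 hr replicate 2 at the same labelled time.

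Cell lines differed in poison exon inclusion by more than the counting error. With 1 library each, however, there is no replicate check and no test. The libraries compared are each in a different library series, so line and series cannot be told apart. Intervals are 95% Wilson intervals and cover counting error only, as PCR copies are not separate molecules. HEK293 had higher inclusion than A375 in 11 of the 16 poison exons, lower in 3 and equal in 2, where 43.2% of all cassette exons were higher. Intervals did not overlap in 10, of which 7 were higher. Of the 13 poison exons with enough reads in both lines, intervals were apart in 9 (7 higher, 2 lower), against 6.08% of 4998 cassette exons (1.84% higher, 4.24% lower). In these 13, 6 were higher by at least 10 points, against 7.3% of all exons, and 3 of the 6 are TRA2A forms with a common acceptor. By the downstream junction alone 3 of the 13 were. The 301- and 79-nt TRA2A forms then differed by 1.52 and −1.10 points, against 35.2 on the acceptor junction that they share with the 312-nt form (17.4 points downstream).

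In HEK293 the TRA2A 312-nt exon was included in 43.9% of reads (35.4% to 52.7%), and in A375 in 14.3% (6.72% to 27.8%). For SRSF6 the values were 27.7% (21.9% to 34.5%) and 9.59% (5.80% to 15.5%), and for TRA2B 27.0% (18.8% to 37.0%) and 5.71% (2.24% to 13.8%). SRSF7 and SRSF3, with lower inclusion, stood at 16.3% against 2.56% and at 9.68% against 1.21%. The SRSF2 exon outside the coding sequence gave 9.47% (7.26% to 12.3%) and 2.73% (1.39% to 5.29%).

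SRSF11 alone among the leading exons was lower in HEK293: its 117-nt exon had 8.0% (5.34% to 11.8%) against 21.7% (14.9% to 30.5%) in A375, and its 33-nt poison exon 2.77% against 11.5%. The 117-nt difference sat on the downstream junction (−21.9 points) and not on the upstream one (0.71 points), which had 2 reads in A375 and 8 in HEK293.

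HUES66 WT was below HEK293 in 10 of the 16 poison exons and above in 6, and in the 8 with separate intervals it was always below; 53% of all exons were higher in HUES66. The same filter over these 2 libraries kept 11, and here too an exon could be kept through HEK293. Of the 11, 7 had separate intervals, all lower, against 11.9% of 5955 exons (4.42% lower). In 6 of the 11 HUES66 WT was lower by at least 10 points, where 9% of all exons were: the exons of SRSF6 and TRA2B, the 449-nt exon of SRSF7 and 3 TRA2A forms with a common acceptor. By the downstream junction alone 3 of the 11 were. TRA2A stood at 16.3%, TRA2B at 9.98%, SRSF7 at 3.69%, SRSF6 at 3.36% and SRSF3 at 2.01%. Against A375, HUES66 WT was higher in 9 and lower in 7 (46% of all exons were higher). Of the 9 that the filter kept, 0 were higher by at least 10 points (background 10.2%). The 117-nt exon of SRSF11 was lower by as much (11.6% against 21.7%, −10.1 points). The share of all exons lower by as much is not given here. The 3 with separate intervals were lower (the 117- and 33-nt exons of SRSF11 and the exon of SRSF6), where 10.3% of 5214 exons had separate intervals and 5.49% were lower. For SRSF6 the direction depended on the HUES66 library: those at 48 hr had 12.4% to 14.3%, above the 9.59% of A375. With HUES66 WT, the order for SRSF3, SRSF7, TRA2A and TRA2B was HEK293 first, with HUES66 and A375 not differing beyond their intervals.

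The introns of SRSF1 and SRSF5 varied as well. The SRSF1 3′ UTR intron had 26.6 reads per 100 of the first intron in HEK293 (95% interval 22.1 to 31.8), 14.7 in A375 (10.98 to 19.4) and 6.80 in HUES66 WT (5.75 to 7.99). The SRSF5 intron had 63.8 per 100 in HEK293 (51.0 to 79.2), 98.9 in A375 and 93.8 in HUES66 WT. The order of the lines for SRSF5 depended on the HUES66 library. Doxycycline libraries of HUES66 had 96.0 to 98 in 24 hr replicate 1, between HEK293 and A375 as HUES66 WT was. They had 38.8 to 45.3 at 48 hr and 58.8 to 63.2 in 24 hr replicate 2, below HEK293. At 96 hr they had 62.3 to 68.2, on both sides of HEK293. For SRSF1 the doxycycline libraries at 48 hr had 17.1 to 19.8, above A375 and below HEK293.

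Gene reads of the lines were set against each other in the same way. In HEK293 against A375 only TRA2A passed 2-fold, at 2.34 (95% exact interval 2.12 to 2.59; 153 against 65.3 CPM), and SRSF5 was lower at 0.657; 38.1% of all genes passed 2-fold in either direction. TRA2A was therefore higher in HEK293 both in reads and in poison exon inclusion. In HUES66 WT against A375, SRSF2 (2.46), SRSF7 (2.14), TRA2B (2.11) and TRA2A (2.06) passed 2-fold, with 45.1% of all genes, and SRSF3 was at 1.997. None of these 4 genes reached 2-fold over A375 in the HUES66 libraries at 48 hr or in 24 hr replicate 2, where the highest ratios were 1.82 (SRSF2), 1.85 (SRSF7), 1.71 (TRA2B) and 1.91 (TRA2A). In HUES66 WT against HEK293 only SRSF5 passed, at 2.17 (275 against 126 CPM), with 40.1% of all genes.

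**Figure D4:**
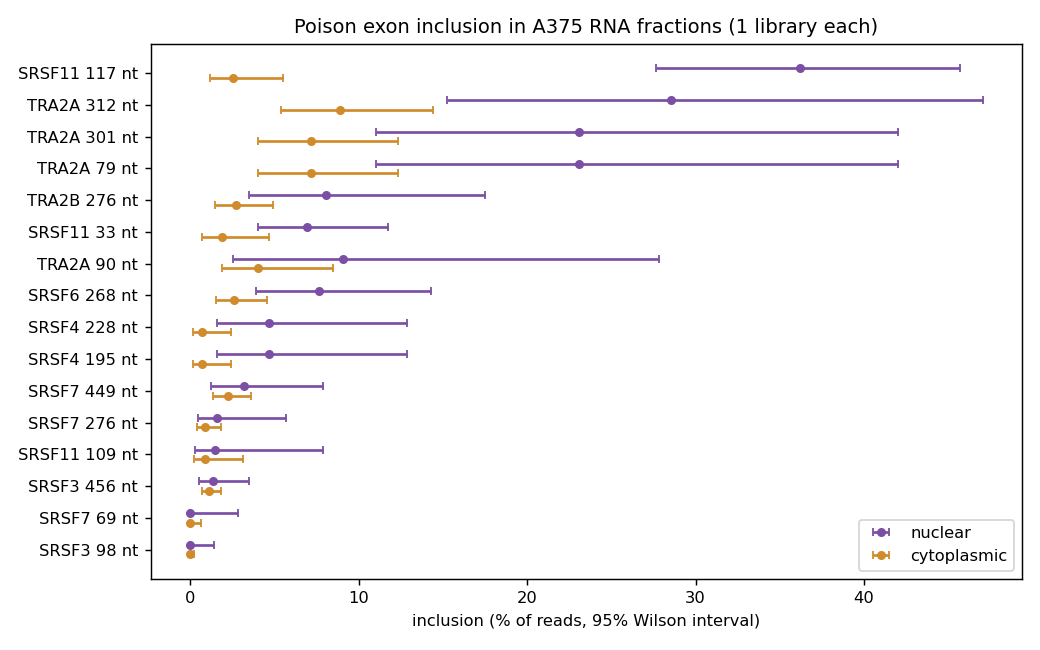
Inclusion of the 16 poison exons in A375 nuclear and cytoplasmic RNA, 1 library each, in percent of reads with 95% Wilson intervals. Nuclear points lie to the right in 14 exons and both points are at 0 in the other 2, after rounding, with at most 1 read on a junction; the TRA2A 312-, 301- and 79-nt forms share reads, as do the 2 SRSF4 forms.

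In A375, poison exon inclusion was higher in nuclear than in cytoplasmic RNA, with 1 library per fraction and no test. This held for 14 of the 16 exons, and the other 2, with 69 and 98 nt in SRSF7 and SRSF3, were at 0 in both after rounding, with 0 or 1 read on each junction. All 16 had at least 20 reads in each fraction, and the filter on pooled inclusion (2% to 98% over both fractions) kept 9. An exon below 2% in cytoplasmic RNA could be kept through nuclear RNA. Inclusion was higher in nuclear RNA in 9 of the 9, where 55.7% of 4102 cassette exons were higher, with a median of 0.78 points. A difference of at least 10 points was seen in 4 of these 9, against 10% of all exons, and 3 of the 4 are TRA2A forms with a common acceptor. By the downstream junction alone 2 of the 9 differed as much: the 301- and 79-nt TRA2A forms were at −0.69 points there, against 26.6 on the shared acceptor junction, and the 312-nt form at 11.4. Read from 1 junction at a time, the count of 16 was 10 or 11, and the SRSF6 difference then rested on the downstream junction (9.19 points, and −0.39 upstream).

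SRSF11 led with 36.2% (27.6% to 45.7%, 105 reads) in the nucleus and 2.56% (1.18% to 5.48%, 234 reads) in the cytoplasm for its 117-nt exon. The difference was 48.9 points by the downstream junction and 5.66 by the upstream one. The TRA2A 312-nt exon had 28.6% (15.3% to 47.1%, 28 reads) and 8.92% (5.39% to 14.4%, 157 reads). These were the 2 exons whose intervals did not overlap, 2 of the 9 that the filter kept, against 4.97% of all exons (3.32% higher in nuclear RNA). TRA2B (8.06% and 2.72%), SRSF6 (7.62% and 2.63%) and the 33-nt SRSF11 exon (6.94% and 1.86%) had overlapping intervals. SRSF7 (3.17% and 2.23%) and SRSF3 (1.37% and 1.12%) showed differences of under 1 point.

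The SRSF1 3′ UTR intron differed between fractions as well. It had 31.6 reads per 100 of the first intron in nuclear RNA (62 and 196 reads, 95% interval 23.4 to 42.3) and 1.01 in cytoplasmic RNA (14 and 1383 reads, 0.55 to 1.70). The SRSF6 skipping intron went the other way, with 61.4 per 100 of its neighbours in nuclear and 127 in cytoplasmic RNA. The coding exons of SRSF7 (36 nt, 86.2% and 83.7%) and SRSF4 (90 nt, 90.7% and 88.5%) had overlapping intervals.

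Gene reads were split between the fractions unequally. SRSF11 had 284 CPM in nuclear and 108 in cytoplasmic RNA, a ratio of 2.63 (2.47 to 2.80). SRSF6 (1.40), TRA2A (1.33) and SRSF5 (1.15) were above 1, SRSF4 (1.04) had an interval that included 1, and SRSF7 (0.753), SRSF2 (0.745), TRA2B (0.672), SRSF1 (0.671) and SRSF3 (0.617) were below 1. The SRSF1 ratio rests on 223 nuclear and 1163 cytoplasmic reads. These leave out its first intron, which had 196 and 1383 reads, so the ratio covers only part of the gene's reads. Only SRSF11 passed 2-fold, where 41.7% of all genes did in either direction. Scaled to the median gene, whose ratio was 0.941, these ratios ran from 0.656 to 2.80. As a check of the fractions, ACTB, GAPDH, EEF1A1 and RPLP0 summed to 12413 CPM in nuclear and 26893 in cytoplasmic RNA. The list of 6 spliced nuclear noncoding RNAs summed to 79.3 and 53.3 CPM, but its genes went both ways: TUG1 and FTX were higher in nuclear RNA, JPX and OIP5-AS1 in cytoplasmic RNA, and MEG3 and MIAT were at 0 in both.

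**Figure D5:**
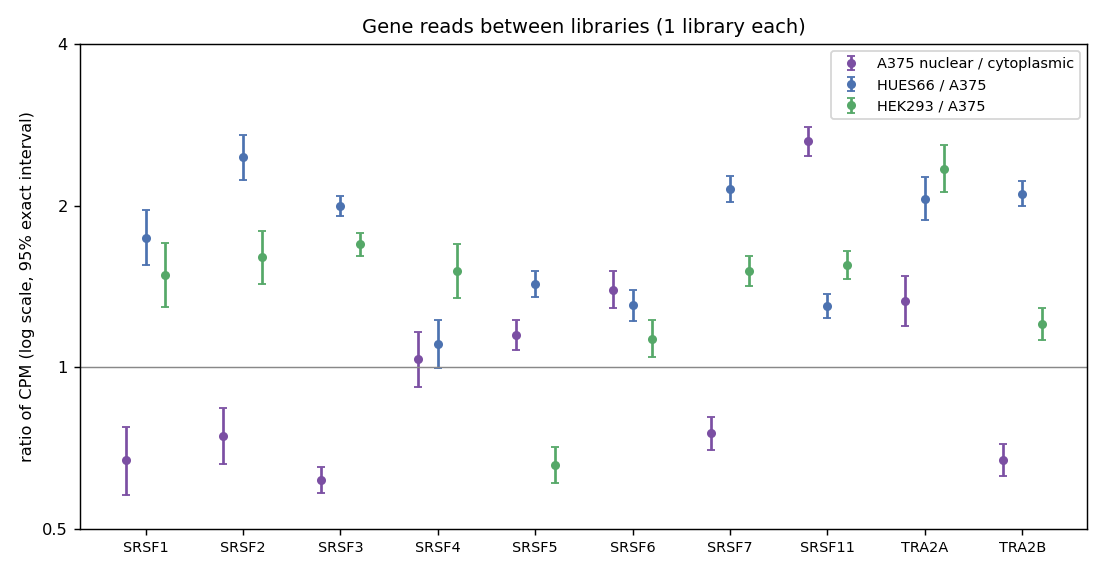
Ratio of gene reads in CPM between single libraries on a log axis, with 95% exact intervals from counts, for the 10 genes: A375 nuclear over cytoplasmic, HUES66 WT over A375 total, and HEK293 over A375 total. SRSF11 is the gene above 2 in nuclear RNA, and TRA2A the gene above 2 in HEK293.

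Partners of SR proteins were read beside them. Of 7 genes for SR kinases and nuclear import (CLK1 to CLK4, SRPK1, SRPK2 and TNPO3), 4 rose (CLK1, CLK2, SRPK1 and TNPO3) and 2 fell between 48 and 96 hr: CLK3, a nuclear kinase of SR proteins, by 0.37 on the log2 scale (−0.37, adjusted p = 4.3e-06), and SRPK2 (−0.30). The list's median was 0.13. Not every arm followed these fits: CLK1 was lower at 96 hr in N-short KD (63.3 to 58.4 CPM) and CLK2 in total KD (74.9 to 73.0 CPM). Of 10 other SR and SR-related genes 9 were tested, and 5 rose (SRSF9, SRSF10, ACIN1, RNPS1 and SON) and 2 fell (SRRM1 and PNN), with a median of 0.07. In total KD, however, SON was lower at 96 hr (275 to 263 CPM). ACIN1, a part of the exon junction complex periphery, had the largest change (0.37, adjusted p = 2.9e-11). Among genes of nonsense-mediated decay, UPF2, a core decay factor, rose by 0.48 (adjusted p = 2.5e-12), and SMG5 (0.34), SMG6 (0.32) and SMG1 (0.15) rose as well. The medians of the kinase and SR lists stand beside −0.01 for all genes and calls in 59% of them. In the knockdown contrasts no gene of the kinase and SR lists was called, and the largest differences in total KD were −0.20 for CLK4 and −0.48 for SRSF12 (adjusted p = 0.374 and 0.243).

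Across all 19 libraries, each gene's log2 CPM was set beside 4089 genes with a mean of at least 50 CPM, as a description, since libraries of 1 line and 1 set share much. TRA2B was most like PTBP1 (Pearson r = 0.991), SRSF7 most like TACC3 (0.991), TRA2A most like SYNCRIP (0.988) and SRSF11 most like RCN2 (0.987). SRSF3 was most like EIF4E2 (0.981), SRSF2 like YTHDF2 (0.963), SRSF1 like ADSL (0.957), SRSF6 like GEMIN5 (0.957), SRSF5 like MICAL1 (0.953) and SRSF4 like APAF1 (0.932).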

How the data were processed

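The deposited junction files, 1 per library, hold raw counts of spliced reads per junction; per the submitters' processing notes STAR 2.7.1 and SAMtools 1.9 were used with build hg38. The authors' 9 rMATS tables gave an inclusion difference (control minus knockdown, a unit other than counts) with p-values and adjusted p-values, per the file headers; 69 per-library columns of these tables were not used.

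Junctions were matched to GENCODE 29 introns. Reads on introns of 1 gene name were summed per gene. Introns of SRSF1 that are also annotated to a second gene name were therefore left out of its gene reads. The 14 doxycycline libraries were fitted together in edgeR 4.0.16 (R 4.3.3; quasi-likelihood test, TMM factors 0.981 to 1.03, filterByExpr), with library set (time and, at 24 hr, replicate) and knockdown as terms and 7 residual degrees of freedom. Exons and introns were fitted as pairs of columns (inclusion and skipping, intron and competing or other reads of the gene), with a mean of at least 20 reads. The intron use within a gene and the 24 hr contrast were added after the data were seen. Adjustment was over all features, at 0.05; DESeq2 1.42.0 and limma 3.58.1 were alternatives. As the check of the replicate block, residuals of same-set libraries correlated at a lowest of 0.476 and a median of 0.703 (18 pairs). The 55 other pairs that were used, fewer than all pairs across sets, had a median of −0.245 and a highest of 0.616, so the ranges overlapped. The fits were tested on simulated data.

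All 10 genes are named, with per gene the poison exon with most inclusion reads and every exon or intron past the threshold in a contrast; likeness is Pearson's r of log2 CPM among genes with a mean of at least 50 CPM. Members, lists and rules were chosen with earlier results of these data known. Single libraries carry 95% intervals. A pseudocount of 0.5 reads was used for limma's log2 ratios and for the ratios of all genes between single libraries. The list of decay genes is reported in part, since 1 item is not reported here.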

Additional observations from a re-analysis of the deposited data

Results flagged for a closer look

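Among 96 groups of 4 libraries looked at, 3 had a library far from the others, and chance flags about 1 in 20 such groups. SRSF2 had 103.3 CPM in control at 48 hr against 93.1, 93.5 and 94.4 in the knockdowns of that time. SRSF5 had 265.9 CPM in total KD at 48 hr, where the other libraries had 294.5, 297.8 and 299.7. Inclusion of the 33-nt poison exon of SRSF11 was 1.32% in control at 48 hr and 0.588%, 0.633% and 0.656% in the knockdowns, on 2 to 4 reads of its upstream junction.

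A junction of SRSF1 outside the annotation, chr17:58005042-58005800, had 22 reads in HEK293, above the 3 reads that a count of 0 allows. It had 13 in A375 nuclear, 7 in A375 total, 6 in A375 cytoplasmic and 4 in HUES66 WT RNA, and 76 in 15 libraries together. It uses the same donor as the annotated SRSF1 intron chr17:58005601-58005800.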

How the results depend on the processing

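Recomputed counts of calls stayed within 1.5 times in 331 cases with 1 library left out and in 80 other cases, and those that did not are named here. With HUES66 WT as the control of 24 hr replicate 1, 1 gene in place of 0 was called in total KD. The 9 exons called between 48 and 96 hr were 5 to 9 with 1 library left out (5 without total KD 48 hr, N-short KD 48 hr, control 96 hr or N-long KD 96 hr), 3 of 11 with the smaller inclusion junction and 3 of 14 with limma on log2 ratios. The 1 exon called between the 24 hr sets was 0 with the smaller junction and 0 with limma. The 17 introns called by share between 48 and 96 hr were 11 with no replicate block and 11 to 17 with 1 library left out, the lowest without N-long KD 48 hr. Without the replicate block SRSF2 in total KD turned to 0.0624 on the log2 scale. The replicate block changed no other count of calls by over 1.5 times. Calls for the SRSF6 268-nt and TRA2A 312-nt exons and the leading SRSF1 and SRSF5 introns between 48 and 96 hr held in every alternative run. The rarest called exon had 1 to 4 reads per junction at 48 hr, which limits the precision of its values.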
